A study of Mus musculus with 18 samples.

Results

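The expression of 45 mouse imprinted genes, chosen by symbol and grouped by imprinted cluster and by the parental allele they are known to be expressed from, was examined in mouse embryonic stem cells (mESCs) with and without Nsd1. All 45 symbols were found among the 20703 genes of the expression table, in 20 clusters, of which 11 hold 2 or more members. By background knowledge 24 members are expressed from the paternal allele, 20 from the maternal allele, and Gnas gives several transcripts of different parental origin. The cells were E14 mESCs, a line from a mouse blastocyst, either wild type (WT) or with a homozygous deletion of exon 5 of Nsd1, the H3K36 methyltransferase of Sotos syndrome. The 2 knockout lines, KO-1 and KO-2, each come from 1 sorted cell and were made in E14 cells that already carried a 3×Flag tag at the end of Nsd1. The labels do not say whether the WT cells carry the tag. RNA was sequenced at day 0, from cells kept with LIF on a layer of mouse embryonic fibroblast feeders, and at day 2 and day 4 after LIF and feeders were withdrawn, in serum, to start differentiation. Each line and day had 2 libraries labelled as biological replicates, 18 in all, so that each day compared 4 KO with 2 WT libraries. A supplementary legend of the paper calls the 2 replicates of its mESC RNA-seq values independent, and nothing further is said of separate cultures. The p-values measure the spread between these libraries. Libraries held 9309874 to 23921193 counts on genes. At day 2 the WT libraries were shallower, with 9309874 and 9356867 counts against 14595828 to 19445827 in KO, and the part of depth in the day 2 results was not tested.

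Nsd1 itself checked the labels. Its normalized counts at day 0 were 3374 and 3659.9 in WT and 837, 711, 689 and 635 in KO, given here and below in the order KO-1, KO-1, KO-2, KO-2. They were 2773 and 3344 in WT and 854, 927, 964 and 1024 in KO at day 2, and 2425 and 2111 in WT and 1103, 910.1, 575 and 684 in KO at day 4. Every KO library was under WT at each day, and the transcript that remained can still be counted on the exons that were not deleted. The labelled cell type was also visible at day 0, where 8 pluripotency markers summed to 80465 and 81982 normalized counts in WT and 79334, 82719, 80370.3 and 80366 in KO.

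Imprinted genes are read mainly from 1 parental copy because the germ line marks an imprinting control region differently in egg and sperm. At most clusters the mark is DNA methylation, which the embryo keeps through its early genome-wide loss, and a long noncoding RNA often acts on the silent neighbours. A smaller, noncanonical group, among them Sfmbt2 and Slc38a4, can be silent on the maternal copy through H3K27me3 laid down in the oocyte. Many members act on fetal and placental growth, with paternally expressed genes often promoting it and maternally expressed genes often restraining it. NSD1 writes H3K36me2, a mark to which DNA methyltransferases bind. The reads of these libraries were not separated by parental copy, so the allele named beside a gene is background. Whether a copy of any member was silent in these cells was not measured. A higher level cannot be told apart from a gain of a silent copy. As the libraries are from bulk RNA, fewer cells of a type and less RNA per cell cannot be told apart either.

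Differences between KO and WT are given as differences of mean VST values, the deposited values after the variance stabilizing transformation, which are on a log2 scale and compress the change of weakly expressed genes. A gene was called when limma gave an adjusted p under 0.01 over all 20703 genes and an absolute difference over 0.58. Normalized counts, recovered by inverting the transformation, are given for each library, and fold changes are ratios of their means. The same thresholds with limma-voom on the recovered counts, which compress weak genes less, are given beside.

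Of the 45 members, 13 were called at 1 day or more and 32 at none. At day 0, 4 members were higher in KO, namely Sfmbt2, Peg10, Impact and Peg12, and of all genes 1.73% were called higher. None of the members was called lower at day 0 by limma, against 0.879% of all genes, although at an unadjusted p under 0.05 12 members were higher and 9 lower, as were 19.6% and 19.7% of all genes, and limma-voom called 0 lower as well. At day 2, 7 members were higher, namely Sfmbt2, Peg10, Mest, Impact, Slc38a4, Peg12 and Sgce, against 4.01% of all genes, and 3 were lower, namely Rian, Grb10 and Dlk1, against 2.37%. At day 4, 4 members were higher, namely Sfmbt2, Mest, H19 and Impact, against 3.67% of all genes, and 3 were lower, namely Peg3, Zdbf2 and Rian, against 3.91%. Sfmbt2 and Impact were the 2 members called at all 3 days. The choice of the members already named Sfmbt2 for its rise, so its values against WT are a description, with no p given. Without it 3, 6 and 3 of the other 44 members were higher at day 0, 2 and 4.

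All members that limma on the VST values called higher at day 0 and day 2, Sfmbt2 included, belong to the paternally expressed group, which holds 24 of the 45 members, and at day 4 the maternally expressed H19 joined 3 of them. limma-voom also called the maternal H19 and Zim1, and Gnas, higher at day 0, and 3 maternal members (H19, Ascl2 and Cd81) at day 4. The members called lower were mixed, with 2 maternal (Rian, Grb10) and 1 paternal (Dlk1) at day 2 and 1 maternal (Rian) and 2 paternal (Peg3, Zdbf2) at day 4. The median difference of the 24 paternal members was 0.11, 0.040 and -0.014 at day 0, 2 and 4, and that of the 20 maternal members -0.078, -0.0046 and 0.020. Over all 45 members the medians were 0.022, 0.036 and -0.011. Over all genes they were -0.0032 and -0.016 at day 0 and day 2, and 0 within rounding at day 4.

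In all 21 calls the 4 KO libraries did not overlap with WT. Non-overlap alone was common in these data. At day 0, 17 members lay above and 10 below WT in every KO library, against 23.1% and 24.3% of all genes. At day 2 the counts were 17 and 14, against 26.2% and 31.4%, and at day 4 they were 16 and 12, against 23.9% and 25.9%. With limma-voom 9 members were higher at day 0 (6.43% of all genes, with 6.86% lower), 7 higher and 8 lower at day 2 (10.3% and 13.6%), and 10 higher and 7 lower at day 4 (10.9% and 13.0%). Without Sfmbt2 the members higher with limma-voom were 8, 6 and 9. At day 2 the median difference of all genes was lower with limma-voom than on the VST values, by -0.13, and its split of members shifted from mostly higher to about even.

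**Figure D1:**
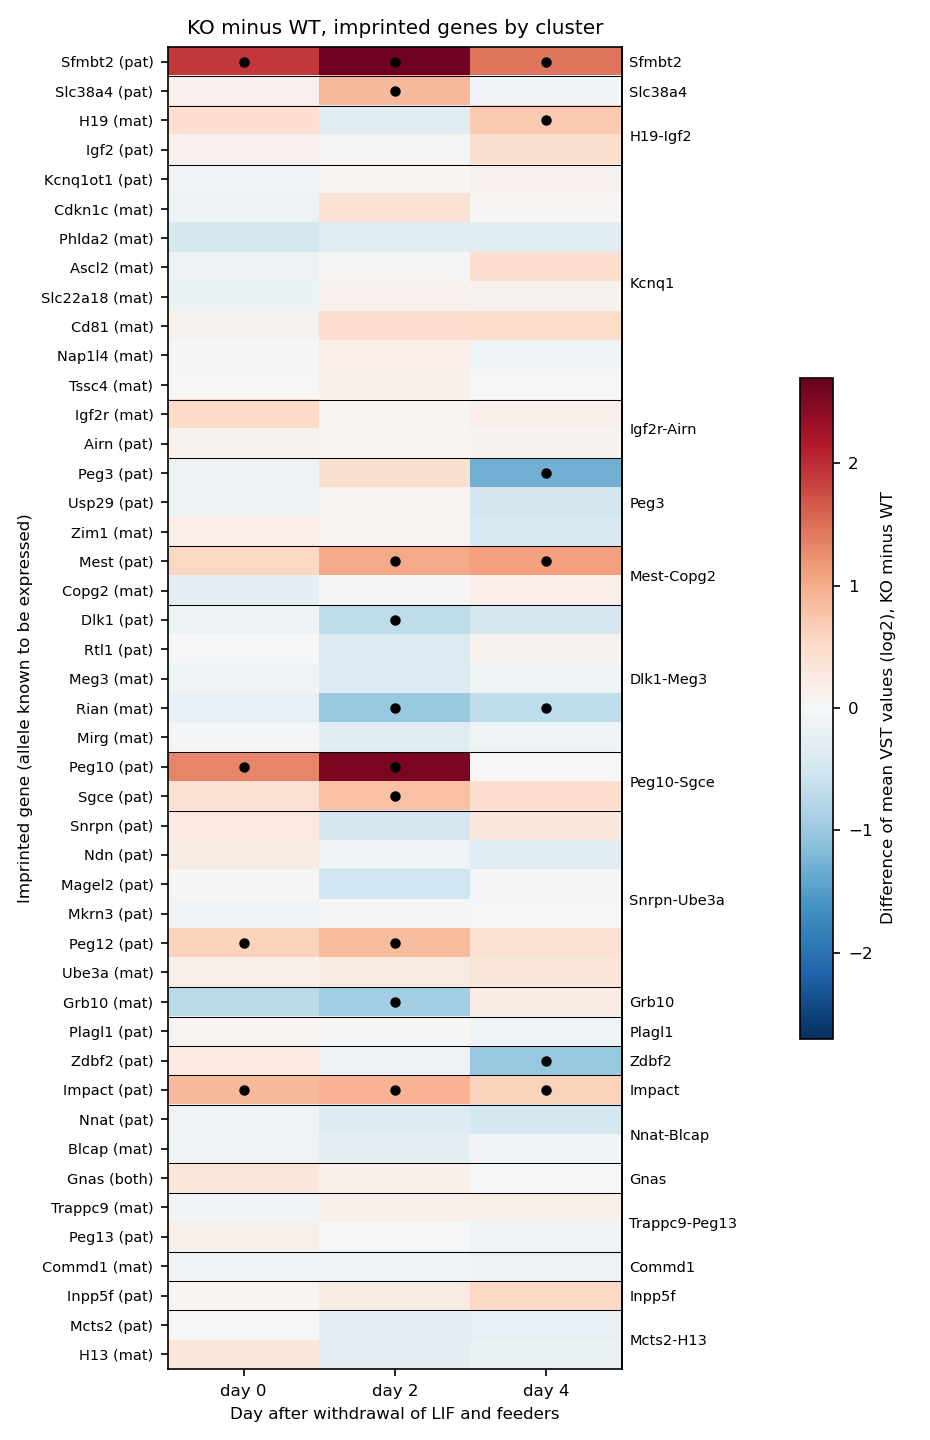
Heat map of the difference between KO and WT in mean VST value (log2, colour bar, 4 KO minus 2 WT libraries) for the 45 imprinted genes (vertical axis, grouped by cluster, with the allele known to be expressed) at day 0, 2 and 4 (horizontal axis), with black dots for the 21 calls. Sfmbt2 and Impact carry a dot at each day, the strongest red is Sfmbt2 and Peg10 at day 2, and the dots on blue cells (lower in KO) lie in the Peg3, Dlk1-Meg3, Grb10 and Zdbf2 clusters.

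Sfmbt2, a polycomb-group protein with MBT repeats whose paternal copy is needed in the placenta, had the largest difference of the members at each day on the VST scale. As it was chosen for its rise, this rank is a description. By ratio of means at day 4 other members differed more. KO was lower there by 3.81-fold for Dlk1 and Zim1, 3.48-fold for Nnat and 3.3-fold for the weak Peg13. It was higher for Ascl2, with normalized counts of 20.1 and 16.4 in WT and 69.9, 85.9, 138 and 125 in KO. The normalized counts of Sfmbt2 at day 0 were 1277 and 1246 in WT and 6602, 5334, 6766 and 6836 in KO, a ratio of 5.06. At day 2 they were 645 and 789 in WT and 5708, 6493, 8453 and 9022 in KO, a ratio of 10.3, and at day 4 2585 and 2337 in WT and 9945, 8341, 6342 and 6744 in KO, a ratio of 3.19. KO and WT libraries stood far apart at every day, while the lines changed places, KO-2 being above KO-1 at day 2 and below it at day 4. The differences on the VST scale were 1.91 ± 0.15 (SE) at day 0, 2.62 ± 0.15 (SE) at day 2 and 1.44 ± 0.15 (SE) at day 4. The gap was smaller at day 4 than at day 2, by -1.18 ± 0.22 (SE), and WT itself dipped at day 2 and rose by day 4. Sfmbt2 lies at chr2:10370510-10595253 (GRCm38, plus strand), and of the RefSeq start sites of each gene the one with most CpG is shown. The 250 bases before 4 start sites, those of Sfmbt2, Mest, Peg12 and Rian, are shown as examples of high and low CpG content, since DNA methylation acts on CpG. They are from the RefSeq promoters of GRCm38.p6 (the authors aligned to mm39), in the direction of transcription, with CpG in capitals.
Sfmbt2, chr2:10372186-10372435, plus strand: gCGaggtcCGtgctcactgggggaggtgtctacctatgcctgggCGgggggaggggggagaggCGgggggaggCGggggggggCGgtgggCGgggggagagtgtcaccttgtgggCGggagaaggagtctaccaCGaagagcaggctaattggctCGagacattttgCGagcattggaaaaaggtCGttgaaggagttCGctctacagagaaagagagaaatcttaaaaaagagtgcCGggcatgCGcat
Mest, chr6:30737800-30738049, plus strand: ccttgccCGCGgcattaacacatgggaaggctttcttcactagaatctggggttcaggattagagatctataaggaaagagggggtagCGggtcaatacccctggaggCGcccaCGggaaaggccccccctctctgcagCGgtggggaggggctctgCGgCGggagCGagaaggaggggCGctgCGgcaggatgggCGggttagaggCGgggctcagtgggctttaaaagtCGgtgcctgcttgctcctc
Peg12, chr7:62464511-62464760, minus strand: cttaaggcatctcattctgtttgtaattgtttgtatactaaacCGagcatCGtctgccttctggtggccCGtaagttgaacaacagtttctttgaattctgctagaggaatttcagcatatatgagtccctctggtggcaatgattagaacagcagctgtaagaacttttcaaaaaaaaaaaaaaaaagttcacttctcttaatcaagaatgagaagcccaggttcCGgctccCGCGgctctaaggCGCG
Rian, chr12:109603695-109603944, plus strand: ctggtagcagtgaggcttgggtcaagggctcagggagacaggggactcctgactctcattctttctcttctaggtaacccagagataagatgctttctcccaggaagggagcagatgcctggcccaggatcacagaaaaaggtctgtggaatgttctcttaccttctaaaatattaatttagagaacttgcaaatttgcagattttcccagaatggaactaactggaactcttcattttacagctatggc
These stretches hold 15, 14, 8 and 0 CpG, in that order. Among the 32851 RefSeq promoter windows of 300 bases (250 before and 50 after a start) the median was 7 CpG, and among the 54 windows of 36 members it was 15. The windows of the members called at 1 day or more held 9 and 16 CpG for Sfmbt2, 8, 17 and 17 for Mest, 12 for Peg12, 0 for Rian, 15 and 38 for Zdbf2 and 13 for Peg3. They held 45 and 9 for Grb10, 9 for Dlk1 and 5 in each of 3 for Slc38a4. The CpG content of members that were higher and lower in KO was not compared. The hexamer TGCCGC, or GCGGCA on the other strand, which is the core that the imprint keeper ZFP57 recognizes when methylated, occurred in 11.6% of all windows and in 24.1% of those of members, 13 windows of 12 members. The stretch of Mest printed above holds 2 of them and the other stretches none. A match is only a run of letters, and methylation was not measured here. The hexamer itself holds a CpG, and the windows of members held more CpG than all windows (medians of 15 and 7). Some windows of the same gene overlap, as for Mest. The shares of windows with the hexamer were not compared at equal CpG content, and no enrichment is read from them. RefSeq windows for H19, Cdkn1c, Nap1l4, Rtl1, Peg10, Sgce, Impact, Trappc9 and Peg13 were not used here.

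Impact, a regulator of the translation kinase Gcn2, was higher in KO at every day and rose with time in both genotypes. Its normalized counts were 1133 and 1175 in WT and 3244, 2638, 2364 and 2186 in KO at day 0, 1876 and 2065 in WT and 4038, 4124, 4192 and 4858 in KO at day 2 and 3055 and 3092 in WT and 5890.5, 4632, 4616 and 5333 in KO at day 4. No KO library overlapped WT, and the ratio of the means fell from 2.26 at day 0 and 2.18 at day 2 to 1.67 at day 4. The differences were 0.87 ± 0.11 (SE, adjusted p = 2.39e-06), 0.93 ± 0.11 (SE, adjusted p = 4.84e-07) and 0.63 ± 0.11 (SE, adjusted p = 5.62e-05). The call of day 4 was lost without the first KO-1 library of that day, with a difference of 0.57.

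Mest, a hydrolase-like protein that marks growing mesoderm, was above WT in every KO library at each day. Its normalized counts were 527 and 515 in WT and 1118, 1015, 916 and 935 in KO at day 0, 636 and 653 in WT and 1688, 1643, 1948 and 2111 in KO at day 2 and 929.8 and 948 in WT and 2469, 2399.6, 2889.5 and 2929 in KO at day 4. At day 0 the difference of 0.55 ± 0.08 (SE, adjusted p = 2.32e-05) was under the fold threshold and called by limma-voom. The difference was 1.02 ± 0.08 (SE, adjusted p = 3.48e-09) at day 2 and 1.11 ± 0.08 (SE, adjusted p = 4.67e-10) at day 4, ratios of 2.87 and 2.85. Its maternally expressed neighbour Copg2, a coatomer subunit, differed by -0.24, 0.03 and 0.19 and was called at no day. The exons of both genes share 912 bases on opposite strands in GENCODE M21 (GRCm38), 23.1% of those of Mest and 17.8% of those of Copg2, and the library kit keeps no strand, so reads there cannot be assigned with certainty.

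The retrotransposon-derived Peg10, which is needed for the placenta, and its divergently transcribed neighbour Sgce, epsilon-sarcoglycan, were both above WT in KO early on. Peg10 had normalized counts of 8214 and 8554 in WT and 26757, 21244, 19867 and 20078 in KO at day 0 and 5017 and 5721 in WT and 32444, 37613, 31273 and 35254 in KO at day 2. At day 4 the counts were 53981 and 46308 in WT and 74036, 57008, 36637 and 39086 in KO, where WT lay between the KO-1 and the KO-2 libraries. WT thus reached the level of KO between day 2 and day 4. The difference was 1.32 ± 0.19 (SE, adjusted p = 2.00e-05), then 2.53 ± 0.19 (SE, adjusted p = 1.42e-09), then -0.01 ± 0.19 (SE, adjusted p = 0.978), and the change of the effect from day 2 to day 4 was -2.54 ± 0.27 (SE, adjusted p = 3.36e-07). Sgce had normalized counts of 91.4 and 69.1 in WT and 170.2, 246, 189 and 219.7 in KO at day 0, 86.4 and 68.1 in WT and 489, 433, 288 and 318 in KO at day 2 and 238 and 253 in WT and 457, 553, 497 and 472 in KO at day 4. It did not meet WT at day 4, where all KO libraries were still above, and on the VST scale the difference passed both thresholds at day 2 only, with 0.79 ± 0.08 (SE, adjusted p = 1.06e-07) and a ratio of 4.95. At day 0 and day 4 the differences were 0.41 ± 0.08 (SE, adjusted p = 5.44e-04) and 0.46 ± 0.08 (SE, adjusted p = 8.07e-05), below the fold threshold, while limma-voom called Sgce at all 3 days.

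Peg12, a Frat family protein at the far end of the Prader-Willi/Angelman cluster, was weakly expressed in WT until day 2 and higher in KO. Its normalized counts were 50.3 and 46.0 in WT and 267, 199.7, 222 and 213 in KO at day 0, 42.4 and 22.7 in WT and 230.1, 252, 324 and 349 in KO at day 2 and 202 and 193 in WT and 368, 359, 399 and 432 in KO at day 4. The ratio of the means went from 4.68 over 8.87 to 1.97, as WT rose by day 4. The differences were 0.61 ± 0.07 (SE, adjusted p = 5.93e-07) and 0.86 ± 0.07 (SE, adjusted p = 2.46e-09) at the first 2 days and 0.41 ± 0.07 (SE, adjusted p = 3.91e-05) at day 4, not called on the VST values but called by limma-voom. The call of day 0 lay next to the fold threshold and was lost without the first KO-1 library of that day (0.58, just under the threshold). Snrpn, a spliceosomal protein, differed by 0.26, -0.47 and 0.29. Ndn (necdin) and Magel2, of the MAGE family, differed by 0.22 and 0.02 at day 0, -0.13 and -0.53 at day 2, and -0.29 and -0.03 at day 4. The ring finger protein Mkrn3 differed by -0.06, 0.04 and -0.02, and the maternally expressed ubiquitin ligase Ube3a differed by 0.15, 0.24 and 0.34. None of these 5 was called, although limma-voom called Snrpn and Magel2 lower at day 2, where Magel2 had 215 and 165 in WT and 70.2, 54.9, 32.8 and 33.7 in KO. Reads of Snrpn and Ube3a may be shared with overlapping transcripts such as Snhg14, antisense to Ube3a.

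Slc38a4, an amino acid transporter of the placenta and the second noncanonical member, was among the most strongly expressed members. Its normalized counts were 6365 and 6350.2 in WT and 7082, 7054, 6859.9 and 6975 in KO at day 0. At day 2 they were 3870.1 and 3999 in WT and 7329.7, 7725, 7682 and 8016 in KO, and at day 4 8414 and 7906 in WT and 8308, 7816, 7503 and 7381 in KO. WT dipped at day 2 and returned and KO did not dip, so that the difference was called at day 2 only, with 0.87 ± 0.06 (SE, adjusted p = 5.71e-10) and a ratio of 1.95. The change of the effect was 0.74 ± 0.09 (SE, adjusted p = 4.06e-06) from day 0 to day 2 and -0.94 ± 0.09 (SE, adjusted p = 4.89e-08) from day 2 to day 4.

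H19, a long noncoding RNA read from the maternal copy, and Igf2, the fetal growth factor of the paternal copy, share an imprinting control region and enhancers. H19 had normalized counts of 125 and 169.8 in WT and 259, 296, 399 and 400.2 in KO at day 0, 350.3 and 277 in WT and 185, 246, 169 and 166 in KO at day 2 and 203 and 181 in WT and 503, 563, 669 and 539 in KO at day 4. KO was above WT at day 0, below it at day 2, and above it at day 4, with differences of 0.45 ± 0.08 (SE, adjusted p = 2.50e-04), -0.28 ± 0.08 (SE, adjusted p = 0.00782) and 0.70 ± 0.08 (SE, adjusted p = 5.67e-07), of which limma on the VST values called the last and limma-voom the first and the last. The change of the effect was -0.74 ± 0.12 (SE, adjusted p = 1.19e-04) from day 0 to day 2 and 0.99 ± 0.12 (SE, adjusted p = 1.59e-06) from day 2 to day 4. Igf2 was on the same side of WT as H19 at day 4, where its normalized counts were 156 and 138 in WT and 236, 338, 404 and 352 in KO and its difference 0.44 ± 0.09 (SE, adjusted p = 5.57e-04), under the fold threshold and called by limma-voom. In GENCODE M21, 62.8% of the exon bases of Igf2 also lie in the overlapping transcript Gm49394 of the same strand, so its counts are uncertain. The receptor that clears IGF2, Igf2r, differed by 0.51 ± 0.16 (SE, adjusted p = 0.0198) at day 0 and was near WT at day 2. At day 4 its KO-1 libraries lay above WT and its KO-2 libraries below it, so a pooled difference describes neither line. This line difference was called by limma-voom and not by limma on the VST values. Airn, the noncoding RNA that overlaps it, had between 0 and 4.51 normalized counts in the 18 libraries, too few for a fold.

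**Figure D2:**
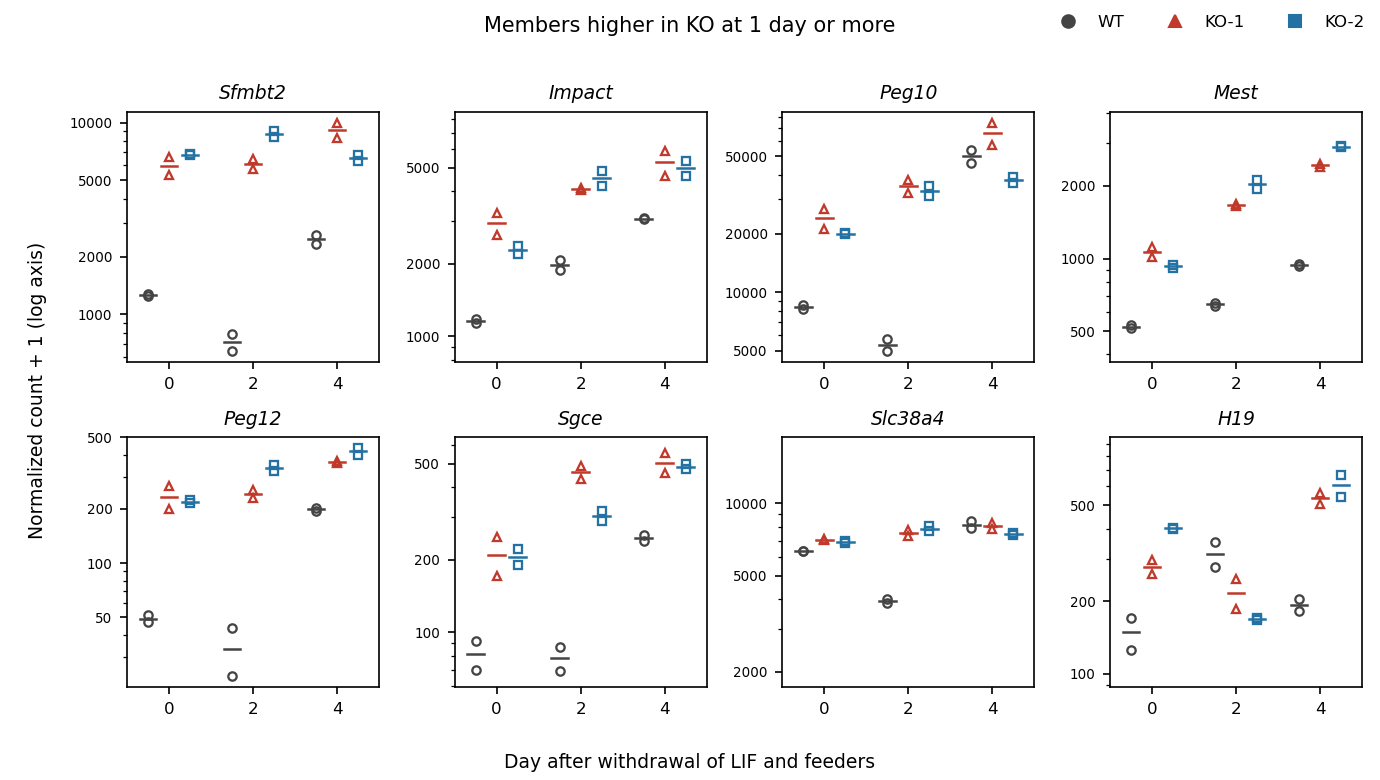
Normalized counts plus 1 (vertical axis, log scale) of the 8 members called higher in KO at 1 day or more, by day after withdrawal of LIF and feeders (horizontal axis). Each symbol is 1 library (circles WT, triangles KO-1, squares KO-2), and each bar is the mean of the 2 libraries of a line. Sfmbt2, Impact, Mest, Peg12 and Sgce keep KO above WT at each day, Peg10 and Slc38a4 meet WT at day 4, and H19 lies below WT at day 2.

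The Dlk1-Meg3 cluster on chromosome 12 held 2 of the 3 members called lower at day 2, Rian and Dlk1. It is read in opposite directions of inheritance, with Dlk1, a Notch ligand-like protein, and Rtl1, a retrotransposon-derived protein of the placenta, from the paternal copy and the noncoding RNAs Meg3, Rian and Mirg from the maternal copy. Rian, which hosts small nucleolar RNAs, had normalized counts of 1065 and 961 in WT and 938, 942, 718 and 647 in KO at day 0, 2811 and 2997 in WT and 1316, 1258, 1024 and 1039 in KO at day 2 and 2441 and 2613 in WT and 1289, 1315, 1457 and 1384 in KO at day 4. The WT counts were higher at the later days than at day 0, and all KO libraries were below them, by 2.5-fold at day 2 and 1.86-fold at day 4. The differences were -1.01 ± 0.09 (SE, adjusted p = 1.35e-08) and -0.68 ± 0.09 (SE, adjusted p = 2.30e-06), and at day 0 -0.21 ± 0.09 (SE, adjusted p = 0.078), not called. Dlk1 had normalized counts of 62.1 and 54.7 in WT and 32.1, 42.6, 46.1 and 24.3 in KO at day 0. At day 2 they were 176 and 173 in WT and 15.6, 22.4, 17.2 and 19.0 in KO, and at day 4 145 and 134 in WT and 20.3, 29.5, 49.0 and 47.4 in KO. The KO counts were 49.0 or less at each day, and KO was 9.43-fold lower at day 2 and 3.81-fold lower at day 4. The VST differences of this weak gene were -0.69 ± 0.05 (SE, adjusted p = 2.62e-09), called, and -0.45 ± 0.05 (SE, adjusted p = 6.71e-07), under the fold threshold and called by limma-voom. Both parental sides of the cluster thus had a member below WT at day 2. Rtl1, Meg3 and Mirg differed by -0.37, -0.36 and -0.29 at day 2 and were not called, while limma-voom called Rtl1 and Mirg lower. Rtl1 had 122 and 115 in WT and 33.2, 50.8, 29.6 and 35.8 in KO at day 2, and Meg3 had 1022 and 1026 in WT and 783, 810.1, 549 and 634 in KO. At day 4 the differences of these 3 were 0.09, -0.09 and -0.12. At all 5 members the highest WT level was that of day 2, and it was there that the 5 differences were most negative.

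Grb10, an adaptor that restrains insulin and IGF receptor signalling, had normalized counts of 3249 and 3056 in WT and 1548, 1469, 1845 and 1838 in KO at day 0. At day 2 they were 4581 and 4770.04 in WT and 1509, 1521, 2966 and 3045 in KO, and at day 4 4087 and 3834 in WT and 3789, 3305, 6019.8 and 6259 in KO. All KO libraries were below WT at day 0 and day 2, and at day 4 KO-2 was above WT and KO-1 below it. The difference was -0.73 ± 0.22 (SE, adjusted p = 0.0139) at day 0, -0.94 ± 0.22 (SE, adjusted p = 0.00134) at day 2, where it was called, and 0.21 ± 0.22 (SE, adjusted p = 0.496) at day 4. The call of day 2 was lost when the day was fitted alone, with KO-2 alone (-0.55), and without either WT library of day 2. At day 0 the adjusted p missed the threshold, and Grb10 was called there when the lines were fitted apart or each day alone. From day 2 to day 4 the effect changed by 1.15 ± 0.30 (SE, adjusted p = 0.00711), which limma did not call with a replicate block within each day (adjusted p = 0.0166).

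Peg3 and Zdbf2, zinc finger proteins read from the paternal copy, rose steeply with differentiation in WT and less in KO. Peg3 had normalized counts of 1543 and 1619.9 in WT and 1693, 1395, 1157 and 1299 in KO at day 0 and 2317 and 2457 in WT and 2885, 3744, 3362 and 3685 in KO at day 2. At day 4 they were 15863 and 14297 in WT and 7838, 6182, 4578 and 4977 in KO, so every KO library was below WT, by 2.56-fold. The difference went from -0.15 ± 0.14 (SE, adjusted p = 0.483) over 0.42 ± 0.14 (SE, adjusted p = 0.018) to -1.29 ± 0.14 (SE, adjusted p = 1.95e-07), and the effect at day 4 differed from that at day 0 by -1.15 ± 0.20 (SE, adjusted p = 1.51e-04). Zdbf2 had normalized counts of 303 and 342 in WT and 678, 618, 320.3 and 328 in KO at day 0, 997 and 1117 in WT and 774, 990.1, 917 and 1016 in KO at day 2 and 3142 and 2809 in WT and 1694, 1184, 905 and 1028 in KO at day 4. KO-1 alone was above WT at day 0, and all KO libraries were below it at day 4, by 2.47-fold with a difference of -1.02 ± 0.15 (SE, adjusted p = 1.11e-05). The effect at day 4 differed from that at day 0 by -1.28 ± 0.21 (SE, adjusted p = 8.87e-05). The other members of the Peg3 cluster moved the same way at day 4 without passing the fold threshold. Usp29, a ubiquitin peptidase that shares its start region with Peg3, had 345 and 276 in WT and 138, 123, 115 and 95.8 in KO and a difference of -0.50 ± 0.06 (SE, adjusted p = 1.76e-06). Zim1, a zinc finger protein read from the maternal copy, had 109 and 122 in WT and 36.1, 23.1, 23.8 and 38.3 in KO and a difference of -0.41 ± 0.04 (SE, adjusted p = 1.16e-07), and limma-voom called both lower. Zim1 had been above WT at day 0, where limma-voom called it higher, with 14.3 and 20.1 in WT and 38.5, 40.1, 35.5 and 48.6 in KO, and its effect at day 4 differed from that at day 0 by -0.59 ± 0.06 (SE, adjusted p = 2.39e-07).

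**Figure D3:**
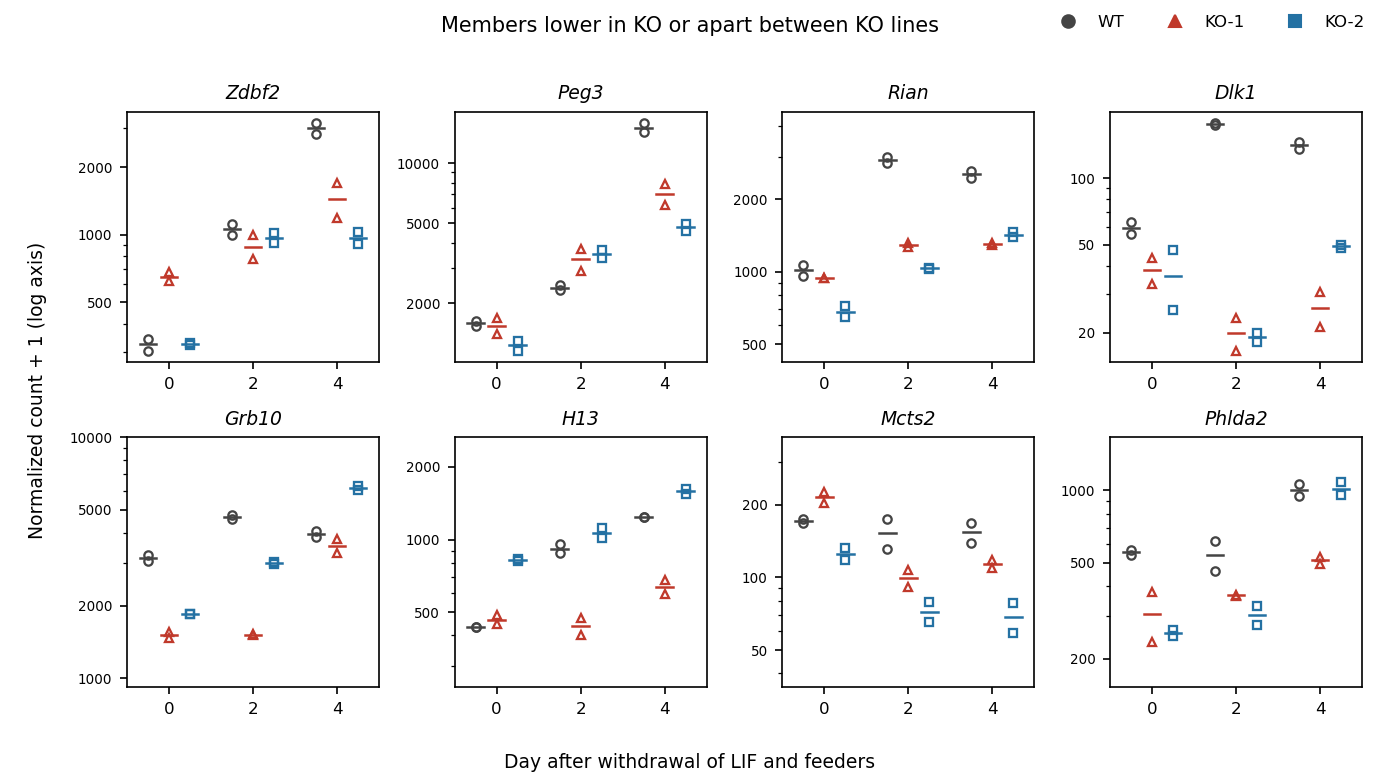
Normalized counts plus 1 (vertical axis, log scale) by day after withdrawal of LIF and feeders (horizontal axis) of the 5 members called lower in KO at 1 day or more (Zdbf2, Peg3, Rian, Dlk1 and Grb10) and of H13, Mcts2 and Phlda2, in which the KO lines lie apart. Each symbol is 1 library (circles WT, triangles KO-1, squares KO-2), and each bar is the mean of the 2 libraries of a line. For H13 the KO-2 libraries lie above and the KO-1 libraries below WT at day 2 and day 4, and Peg3 and Zdbf2 rise more in WT than in KO.

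The Kcnq1 cluster, whose paternal noncoding RNA Kcnq1ot1 silences neighbours that are read from the maternal copy, had no call at any day among its 8 members by limma on the VST values, while limma-voom called Ascl2 and Cd81 higher at day 4. Cdkn1c, the cyclin-dependent kinase inhibitor p57, differed by -0.15, 0.40 and 0.03, and Phlda2, a restrainer of placental growth, by -0.47, -0.34 and -0.28. Cd81, a tetraspanin, differed by 0.10, 0.45 and 0.49. Ascl2, a bHLH transcription factor of the trophoblast, fell in WT from 237 and 219 at day 0 to 20.1 and 16.4 at day 4. In KO it had 132, 153, 174 and 206 at day 0 and 69.9, 85.9, 138 and 125 at day 4, a change that limma-voom called and limma on the VST values did not. Its difference was 0.46 ± 0.07 (SE, adjusted p = 1.36e-05) at day 4, under the fold threshold, and its change of effect from day 0 to day 4 of 0.62 ± 0.10 (SE, adjusted p = 3.90e-05) was called. Kcnq1ot1 had between 13.1 and 80.1 normalized counts and the transporter Slc22a18 between 3.26 and 74.8. The differences of Kcnq1ot1 were -0.10, 0.05 and 0.11, and those of Slc22a18 -0.17, 0.11 and 0.10. Nap1l4, a nucleosome assembly protein, and Tssc4, a spliceosome assembly factor, differed by at most 0.17 in either direction. Among the remaining members, Nnat, a membrane proteolipid, was under WT at day 4 with 169 and 181 in WT and 44.0, 34.6, 50.4 and 72.0 in KO and a difference of -0.47 ± 0.06 (SE, adjusted p = 2.73e-06), and Inpp5f, an inositol phosphatase, above it with 607 and 665 in WT and 1318, 1223, 1114 and 1089.9 in KO and 0.57 ± 0.06 (SE, adjusted p = 3.15e-07). Both were under the fold threshold and called by limma-voom, which also called Nnat lower at day 2. Nnat lies in an intron of Blcap, a small membrane protein read mainly from the maternal copy, which differed by -0.11, -0.27 and -0.07. Gnas, the stimulatory G protein subunit, differed by 0.30, 0.14 and -0.02, was called higher at day 0 by limma-voom, and its exons overlap the antisense Nespas. The trafficking subunit Trappc9 differed by -0.08, 0.14 and 0.15, and Peg13, a noncoding RNA within it, by 0.17, 0.01 and -0.10. Commd1, a COMM domain protein, differed by -0.07, -0.12 and -0.16, and Plagl1, a zinc finger transcription factor, by 0.08, 0.03 and -0.11. Over all 32 members called at no day, the differences ran from -0.47 to 0.51 at day 0, from -0.53 to 0.45 at day 2 and from -0.50 to 0.57 at day 4.

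Both KO lines were compared with each other, as each is 1 clone. No member differed at day 0 by limma on the VST values, where 0.029% of all genes were higher and 0.0% lower in KO-1, while 12 members were higher and 7 lower at an unadjusted p under 0.05, as were 7.73% and 7.03% of all genes. limma-voom called Meg3 higher and H13 lower at day 0, against 0.14% and 0.0193% of all genes. At day 2, H13 and Grb10 were lower in KO-1, against 0.0145% of all genes (0.029% were higher), and at day 4 H13, Grb10 and Phlda2 were lower, against 0.0966%, and Peg10 was higher, against 0.155%. limma-voom called 0 higher and 2 lower at day 2, and 2 higher and 4 lower at day 4, for which its shares of all genes are not given here. Its further calls at day 4 were Igf2r, higher in KO-1, and another member of the Kcnq1 cluster beside Phlda2, lower. H13, a signal peptide peptidase read mainly from the maternal copy, had normalized counts of 433 and 433 in WT and 483, 444, 830.4 and 811 in KO at day 0. They were 953 and 877 in WT and 472, 402, 1112 and 1016 in KO at day 2 and 1242 and 1243 in WT and 594, 677, 1550.5 and 1614 in KO at day 4. KO-1 rose less than WT and KO-2, so at day 2 and day 4 the lines lay on opposite sides of WT and the pooled differences of H13 (0.28, -0.23 and -0.18) describe neither line. The line difference, KO-1 minus KO-2, was -0.75 ± 0.06 (SE, adjusted p = 3.30e-07) at day 2 and -0.87 ± 0.06 (SE, adjusted p = 5.89e-08) at day 4. Mcts2, a retrogene in an intron of H13 read from the paternal copy, was ordered the other way, with 202 and 226 in KO-1 against 117 and 132 in KO-2 at day 0, 90.7 and 107 against 78.0 and 64.3 at day 2, and 108 and 117 against 58.1 and 77.5 at day 4. Its pooled differences were -0.01, -0.24 and -0.22. Its line differences of 0.26, 0.12 and 0.19 were not called, and as a copy of Mcts1 it may share reads with that gene. For Grb10 the line difference was -0.78 ± 0.06 (SE, adjusted p = 3.30e-07) at day 2 and -0.70 ± 0.06 (SE, adjusted p = 1.46e-06) at day 4, for Phlda2 -0.59 ± 0.08 (SE, adjusted p = 2.03e-04) and for Peg10 0.77 ± 0.11 (SE, adjusted p = 3.57e-04) at day 4.

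Most members called between day 0 and day 4 rose, in WT as in KO. From day 0 to day 4, 10 members rose in WT (Peg3, Peg10, Zdbf2, Impact, Ndn, Rian, Gnas, Sfmbt2, Usp29 and Meg3), against 7.68% of all genes, and 3 fell (Trappc9, Ascl2 and Copg2), against 6.16%. In KO, 8 rose (Peg3, Grb10, Peg10, Mest, Impact, Zdbf2, Phlda2 and Meg3), against 3.44%, and 1 fell (Trappc9), against 3.06%. Peg3 rose 9.53-fold in WT and 4.25-fold in KO, Zdbf2 9.22-fold and 2.47-fold, and Peg10 5.98-fold and 2.35-fold. Necdin rose 4.84-fold in WT, and in KO its ratio of day 4 to day 0 was 2.11 and its difference of 0.47 ± 0.06 (SE, adjusted p = 8.47e-07) stayed under the fold threshold. Trappc9 fell in both, 3.3-fold in WT and 2.43-fold in KO. These comparisons share their libraries with those of KO against WT, so they are not separate evidence.

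The difference between the courses was tested itself. The KO effect at day 4 minus that at day 0 was called lower for 4 members (Peg10, Zdbf2, Peg3 and Zim1), against 4.13% of all genes, and higher for Ascl2, against 2.81%. From day 0 to day 2 it was higher for Peg10 and Slc38a4, against 2.08%, and lower for Rian, H19 and Snrpn, against 1.11%. limma-voom did not call this change of Peg10 (adjusted p = 0.0127). From day 2 to day 4 it was lower for 6 members (Peg10, Peg3, Sfmbt2, Slc38a4, Zdbf2 and Usp29), or 5 without Sfmbt2, against 4.27%, and higher for Grb10, H19 and Snrpn, against 2.15%. The change of Grb10 was not called with a replicate block within each day. Snrpn had normalized counts of 544 and 567 in WT and 577, 756, 840.2 and 883 in KO at day 0 and 2358 and 2122 in WT and 1558, 1383, 1478 and 1394 in KO at day 2, where WT rose more. At day 4 they were 929.8 and 831 in WT and 1007, 1126, 1361 and 1272 in KO, with all KO libraries above WT again.

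At day 4 the libraries differed widely in cell type markers, and these values stand beside every day 4 result. The 7 mesoderm markers summed to 30998 and 30372 normalized counts in WT, with T (brachyury) the most abundant, and 837, 881, 355 and 410.4 in KO, and 6 of the 7 were called lower. The 11 trophoblast markers, of which the simple keratins Krt8 and Krt18 are also made by other epithelia and Eomes is also in the mesoderm list, summed to 43641 and 42190.5 in WT, with Krt8 the most abundant, and 6411, 6909.6, 7880.3 and 7966 in KO, and 6 were lower and 1 higher. The 10 markers of extraembryonic endoderm summed to 5582 and 5441 in WT and 1341, 1318, 1473 and 1517 in KO, with Col4a1 the most abundant, and 3 were lower. Of the 8 pluripotency markers, 6 were higher in KO at day 4 and 1 lower. Beside these marker counts, 3.67% of all genes were called higher and 3.91% lower at day 4. At day 2 markers differed too, and these values stand beside the day 2 results. The trophoblast markers had sums of 3238 to 3266 in WT and 1251 to 1412 in KO, with 1 called higher and 3 lower. Those of extraembryonic endoderm had sums of 2043 to 2086 in WT and 824 to 980 in KO, with 2 lower. Those of mesoderm had sums of 318 to 324 in WT and 94.5 to 137 in KO, and limma called none. Of the pluripotency markers, 5 were higher and 1 lower, where 4.01% of all genes were called higher and 2.37% lower. The part of these cell types in the lower day 4 levels of Peg3, Zdbf2 and Rian in KO, and in the day 2 results, was not tested.

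At day 0 the feeders may be a further source of RNA, and their share was not measured. Of 13 fibroblast markers 12 were in the table, and they summed to 4577 and 4536 normalized counts in WT and 7068, 6669.98, 7463 and 7628 in KO, with Col1a1 the most abundant. Col1a1, Col1a2 and Col3a1 were called higher and Pdgfrb lower, against 1.73% and 0.879% of all genes, and Lum was at 0 in all 6 libraries of that day. At day 2, with the feeders withdrawn, the sums were 1667 and 1507 in WT and 1153, 1143, 1428 and 1425 in KO. KO was thus above WT at day 0 and below it at day 2. At day 4 the sums were 12093 and 11488 in WT and 1942, 2044, 2645 and 2481 in KO, of which Col5a1 gave the most. The part of feeder RNA in the day 0 values of H19, Igf2, Mest and Igf2r was not tested.

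**Figure D4:**
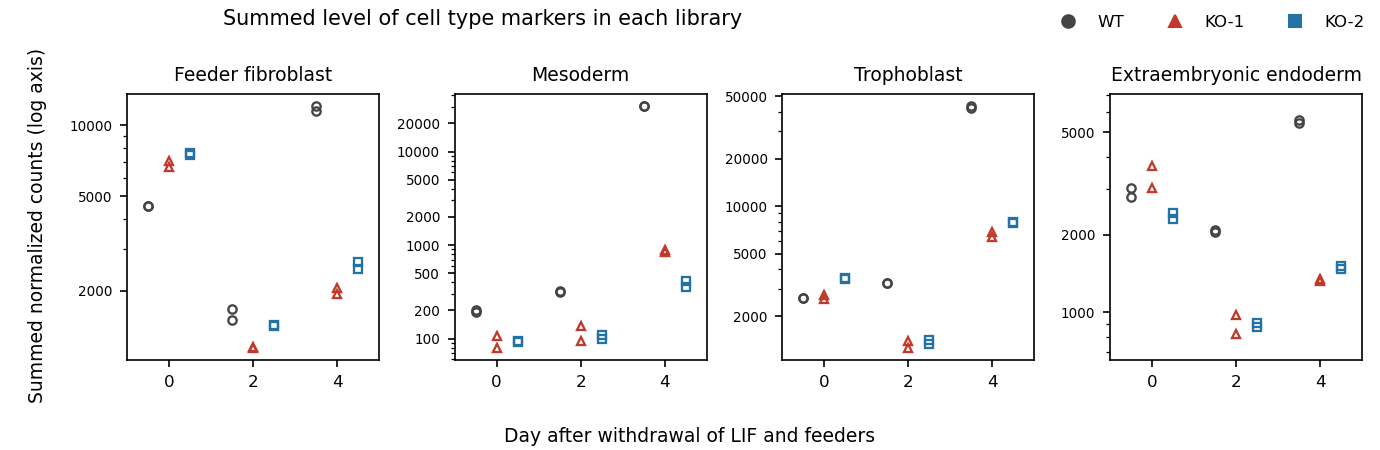
Summed normalized counts (vertical axis, log scale) of the markers of feeder fibroblasts, mesoderm, trophoblast and extraembryonic endoderm in each library, by day after withdrawal of LIF and feeders (horizontal axis), with circles for WT, triangles for KO-1 and squares for KO-2. At day 4 the 2 WT libraries lie above the 4 KO libraries in each panel, and at day 0 the KO libraries lie above WT for feeder fibroblasts.

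Genes known for noncanonical imprinting outside the 45 members, Smoc1, Jade1 and Gab1, were each higher in KO at 1 day or more. Of 4 such genes, these 3 and Slc38a4 but not Sfmbt2, limma and limma-voom each called 1 higher at day 0, 3 at day 2 and 3 at day 4, against 1.73%, 4.01% and 3.67% of all genes by limma, and none lower. Smoc1, a secreted calcium-binding protein, had normalized counts of 633 and 583 in WT and 1458, 1336, 1210.2 and 1122 in KO at day 0, 500.3 and 509 in WT and 1098, 1226, 1287 and 1111 in KO at day 2 and 189 and 232 in WT and 1234, 1277, 1144 and 1063 in KO at day 4. It was called at each day, with 0.68 ± 0.07 (SE, adjusted p = 4.01e-07), 0.74 ± 0.07 (SE, adjusted p = 4.72e-08) and 1.31 ± 0.07 (SE, adjusted p = 5.13e-12). Jade1, a subunit of a histone acetyltransferase complex, had 2961 and 3024 in WT and 5431, 6128, 6748 and 7039 in KO at day 2 and 946 and 889 in WT and 5274, 4502, 4526 and 4716 in KO at day 4, with differences of 0.94 ± 0.09 (SE, adjusted p = 2.40e-08) and 1.84 ± 0.09 (SE, adjusted p = 4.13e-13). Gab1, an adaptor of growth factor receptors, had 1646 and 1522 in WT and 4729, 4465, 4936 and 4826 in KO at day 4 and a difference of 1.29 ± 0.09 (SE, adjusted p = 1.06e-10). Jade1 and Gab1 were near WT at day 0, at 0.09 and -0.07, and their WT libraries held fewer counts at each later day. The median difference of the 4 genes was 0.11, 0.81 and 1.30 at day 0, 2 and 4, beside the medians of all genes given above.

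Of 40 further imprinted genes 34 were in the table, with 1 called higher at day 0, 1 higher at day 2, and 2 higher and 2 lower at day 4. Of all genes 1.73%, 4.01% and 3.67% were higher and 3.91% lower at day 4. limma-voom called 2 of the 34 higher and 2 lower at day 0, 3 and 6 at day 2, and 6 and 5 at day 4. Its shares of all genes were 6.43% and 6.86% at day 0, 10.3% and 13.6% at day 2, and 10.9% and 13.0% at day 4. Zfp264, a zinc finger gene of the Peg3 cluster, had normalized counts of 169 and 204 in WT and 199, 219, 172 and 189 in KO at day 0 and 16.3 and 9.72 in WT and 193, 228, 189.6 and 208 in KO at day 2. At day 4 they were 0 and 1.26 in WT and 194, 169, 199 and 204 in KO, so it was at or near 0 in WT, whereas its neighbours Peg3, Usp29 and Zim1 were lower in KO than in WT. Its differences were 0.83 ± 0.05 (SE, adjusted p = 7.53e-11) and 1.03 ± 0.05 (SE, adjusted p = 8.16e-13). Atp10a, a phospholipid flippase near Ube3a, had 154 and 147 in WT and 724, 530.5, 568 and 558 in KO at day 0 and differed by 0.86 ± 0.09 (SE, adjusted p = 2.37e-07). Ddc, the aromatic amino acid decarboxylase next to Grb10, had 12.1 and 20.2 in WT and 129.7, 132, 192 and 209 in KO at day 4 and differed by 0.68 ± 0.08 (SE, adjusted p = 5.07e-07). Asb4, near Peg10, and Osbpl5, of the Kcnq1 cluster, were lower at day 4, with -0.61 ± 0.06 (SE, adjusted p = 1.33e-07) and -0.89 ± 0.05 (SE, adjusted p = 1.26e-11).

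**Figure D5:**
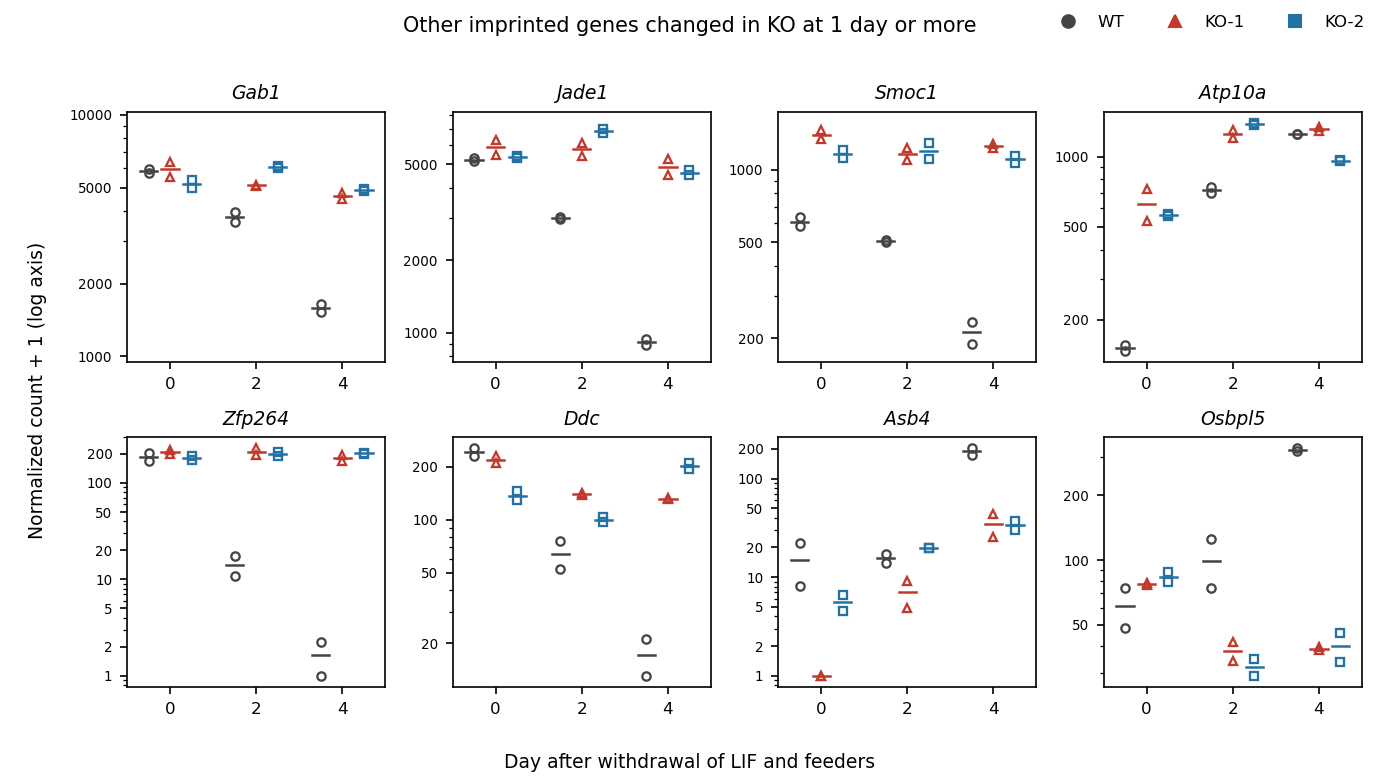
Normalized counts plus 1 (vertical axis, log scale) by day after withdrawal of LIF and feeders (horizontal axis) of imprinted genes outside the 45 that were called in KO against WT at 1 day or more. Each symbol is 1 library (circles WT, triangles KO-1, squares KO-2), and each bar is the mean of the 2 libraries of a line. Gab1, Jade1, Smoc1, Zfp264 and Ddc lie lowest in WT at day 4, below the KO libraries, and Asb4 and Osbpl5 lie higher in WT than in KO at day 4.

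Genes that keep or erase imprints were read from a list of 20, all in the table. At day 0, 2 were higher in KO, at day 2, 3 were higher and 1 lower, and at day 4, 5 were higher. Of all genes 1.73% were higher at day 0, 4.01% higher and 2.37% lower at day 2, and 3.67% higher at day 4. The counts of limma-voom were 2 higher at day 0, 4 higher and 2 lower at day 2, and 7 higher at day 4. Its shares of all genes were 6.43% higher at day 0, 10.3% higher and 13.6% lower at day 2, and 10.9% higher at day 4. Dppa3, which protects imprints in the early embryo, was higher at each day, with 92.3 and 79.1 in WT and 551, 801, 814 and 830.3 in KO at day 0 and 0 and 6.31 in WT and 268, 297, 272 and 242 in KO at day 4. The DNA methyltransferase gene Dnmt3b differed by 0.67, -0.64 and 1.62 at day 0, 2 and 4, each of them called. Dnmt3l, its cofactor, was higher at day 2 and day 4, by 1.56 and 2.02. Dnmt3a was higher at day 4, by 1.26, and so was the demethylating enzyme Tet1, by 0.97. Zfp57, the zinc finger protein that holds methylated imprints, was higher at day 2, with 406 and 352 in WT and 1683, 1622, 1698 and 1526 in KO and a difference of 1.29 ± 0.06 (SE, adjusted p = 2.12e-12).

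The nearest 3 measured genes on each side of the members that differed by over 1 were also read, 28 genes that are not members themselves. At day 0, 1 was higher (Col1a2, near Peg10, also a fibroblast marker), at day 2, 2 were higher (Zfp264 and Adam23, the latter near Zdbf2) and 1 lower (Itih5, near Sfmbt2), and at day 4, Zfp264 and Adam23 were higher. Of all genes 1.73% were higher at day 0, 4.01% higher and 2.37% lower at day 2, and 3.67% higher at day 4. limma-voom called 1 neighbour higher and 3 lower at day 0, 3 and 3 at day 2, and 4 and 2 at day 4. Its shares of all genes were 6.43% and 6.86% at day 0, 10.3% and 13.6% at day 2, and 10.9% and 13.0% at day 4. Itih5, of the inter-alpha-trypsin inhibitor family, had 104 and 84.3 in WT and 1.95, 0, 3.12 and 2.11 in KO at day 2, opposite in direction to Sfmbt2. Adam23, a membrane protein of the ADAM family, had 125 and 127 in WT and 1407, 1347, 1268 and 1243 in KO at day 4, opposite in direction to Zdbf2.

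Levels of different members can be compared only per length, as mean normalized counts per kb of exon in GENCODE M21. In WT at day 0 Slc38a4 was highest with 1492 per kb, followed by Peg10 with 1258, Nap1l4 with 963 and Cd81 with 783. In WT at day 4 Peg10 led with 7521, followed by Slc38a4 with 1915, Nap1l4 with 1205 and Peg3 with 1132, and in KO at day 4 Peg10 led with 7753, followed by Slc38a4 with 1819, Nap1l4 with 1089, Cd81 with 1082, Impact with 998 and Sfmbt2 with 859. The lowest 3 in each of these groups were the noncoding RNAs Airn, Kcnq1ot1 and Peg13. Their exon lengths used here were 3597, 93092 and 4725 bases, in that order, and the libraries were poly-A selected. The part of length and of RNA selection in these low ranks was not tested.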

How the data were processed

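Poly-A RNA-seq libraries of WT and Nsd1 KO E14 mESCs (2 KO lines, 3 days, 2 libraries each) were analysed from the table deposited by the authors. The authors trimmed reads with Trim Galore 0.6.7, aligned them to mm39 with STAR 2.7.11a, counted primary, nonduplicated fragments on exons with featureCounts 2.0.6, removed genes with an average count under 1, and deposited VST values of DESeq2 1.42.0 on a log2 scale. Whether counting used strand is not stated in the sources used here. Inverting the transformation gave whole counts for 100% of the values (within 0.01) and the authors' size factors, and 74.9% of counts from 1 to 20 were even, for a reason that is not known.

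limma 3.58.1 (R 4.3.3) with a trended prior variance was fitted to the VST values in 6 groups of genotype and day, with Benjamini-Hochberg adjustment over 20703 genes, and the KO lines were compared in 9 groups. limma-voom was run on the recovered counts with the authors' size factors. An exact permutation test of 4 against 2 libraries cannot go below p = 0.0667. On simulated data of 20703 genes for KO against WT at day 2, limma on VST values called 37 of 100 genes changed 2-fold and 69 of 100 changed 4-fold, limma-voom 67 and 98, and neither called an unchanged gene. The simulated libraries had an assumed spread and no difference between lines, and only genes above a low mean were changed. The rate of false calls in the real libraries was therefore not measured. Gene lengths and order came from GENCODE M21 (GRCm38), which held 20592 (99.5%) of the genes, and promoters from RefSeq (GRCm38.p6). RefSeq windows on 1 chromosome were left out. Plots used matplotlib 3.10.9 under Python 3.11.15.

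The members and lists were chosen with earlier results of these data known. Named with all values were members called at 1 day or more with KO and WT libraries apart, other members by cluster, called genes of the lists (at most 6 a list), Nsd1, and genes next to members that differed by over 1. Alternatives were each day alone, lines apart or alone, weak genes left out up to the 25th percentile, the replicate number as a block (also within each day, chosen after seeing the data), quantile normalization, median centring, no trend, limma-voom, other thresholds, and each library left out.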

Additional observations from a re-analysis of the deposited data

Results flagged for a closer look

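Among the 13 members named with full values, the 4 KO libraries of each day were checked for a library apart from the others, 39 groups in all, of which chance alone picks out about 1 in 20. Sfmbt2 at day 0 was the 1 group found, with a gap of 0.859 of the range, since the second KO-1 library (5334 normalized counts) lay under the other KO libraries and still far above WT.

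The KO lines differed from each other (KO-1 minus KO-2, VST scale, limma) in Grb10 at day 2 and day 4 (-0.78 and -0.70), in H13 at day 2 and day 4 (-0.75 and -0.87), and in Peg10 (0.77) and Phlda2 (-0.59) at day 4. Both lines carry the Nsd1 deletion, and each side is 2 libraries of 1 clone. The effect of KO differed between day 2 and day 0 in H19 (-0.74), Peg10 (1.22), Rian (-0.80), Slc38a4 (0.74) and Snrpn (-0.73), of which limma-voom did not call Peg10 (adjusted p = 0.0127). Between day 4 and day 0 it differed in Ascl2 (0.62), Peg10 (-1.33), Peg3 (-1.15), Zdbf2 (-1.28) and Zim1 (-0.59). Between day 4 and day 2 it differed in Grb10 (1.15, not called with a replicate block within each day), H19 (0.99), Peg10 (-2.54), Peg3 (-1.72), Sfmbt2 (-1.18, a description), Slc38a4 (-0.94), Snrpn (0.76), Usp29 (-0.58) and Zdbf2 (-0.89). Each pair of these 3 sets shares the libraries of a day.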

How the results depend on the processing

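Of the 21 calls of members in KO against WT, 18 held in all 29 alternatives that kept the thresholds and none changed sign, and 10 of the 21 had an absolute difference over 1. Without Sfmbt2, which was chosen for its rise, 15 of 18 calls held and 7 of 18 were over 1. Peg12 at day 0, Impact at day 4 and Grb10 at day 2 were lost in 1, 1 and 4 of these alternatives. The counts given in the results were 4, 7 and 4 members higher and 0, 3 and 3 lower at day 0, 2 and 4. Under limma-voom the counts of members higher in KO were 9 at day 0 and 10 at day 4, and those lower 8 at day 2 and 7 at day 4. With an adjusted p under 0.05 and no fold threshold they were 12, 13 and 13 higher and 4, 12 and 9 lower at day 0, 2 and 4, and with a fold threshold of 1 they were 2, 3 and 2 higher and 0, 1 and 2 lower. At day 0, 1 member (Grb10) was lower with each day fitted alone, in 9 groups, and with KO-1 or KO-2 alone. For day 4 against day 0, limma-voom gave 19 higher in WT and 23 higher and 4 lower in KO, the threshold of 0.05 gave 26 higher in WT and 28 higher and 7 lower in KO, and the fold threshold of 1 gave 4 higher in WT, 4 in KO and 0 lower in both. The effects that rose from day 0 to day 4 numbered 3 with limma-voom, 2 in 9 groups, 2 with KO-1 alone, 3 with KO-2 alone, 2 after quantile normalization, 8 at 0.05 and 0 at a fold of 1, and those that fell 7 with KO-1 alone and 10 at 0.05. The cause of these shifts was not tested, other than the thresholds themselves. Of the settings in this paragraph, shares of all genes are given above only for the main fit and, for KO against WT, for limma-voom. The other counts have no such share beside them and are not read as a trait of the members.

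Leaving out each library in turn gave 3 to 4 members higher and 0 to 1 lower at day 0, 7 to 7 higher and 2 to 3 lower at day 2, and 3 to 5 higher and 3 to 3 lower at day 4. It gave 8 to 11 higher in WT and 7 to 10 in KO for day 4 against day 0, and 1 to 3 effects that rose and 3 to 4 that fell between these days. Grb10 became lower at day 0 without KO-1 day 2 replicate 1, KO-2 day 2 replicate 2, either KO-1 day 4 replicate or KO-2 day 4 replicate 1. Differences near 0 changed sign at day 4, for Grb10 with KO-1 alone (-0.14), and for Peg10 with KO-1 alone (0.37), after quantile normalization (0.10) and median centring (0.0162), and without WT replicate 1 (0.10) or either KO-2 replicate (0.13 and 0.10), and leaving out single libraries took Peg10 from -0.20 to 0.13. Replicate numbers were not stated to mark a shared culture, and the differences between replicates of 2 groups correlated between -0.61 and 0.64 (36 pairs of groups, 10351 genes). Within a day the 3 pairs of groups correlated between -0.23 and -0.0017 at day 0, between 0.37 and 0.48 at day 2 and between -0.50 and 0.35 at day 4, so the numbers deviated together at day 2 and not at every day, and pairing was not assumed. The replicate block gave 4, 7 and 4 members higher and 0, 3 and 3 lower at day 0, 2 and 4, the counts without it, and changed no other count of members given above. A replicate block within each day, chosen after seeing the data, also gave 4, 7 and 4 higher and 0, 3 and 3 lower, and under it the change of the effect of Grb10 from day 2 to day 4 was no longer called. Weak members such as Airn, Peg13 and Plagl1 had few counts, and what difference could be detected in them at this depth was not tested.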
